A study of Rattus norvegicus with 6 samples.

Results

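The cytosolic ribosomal protein genes encode the protein part of the ribosome that translates nuclear-encoded messages. They were taken as the array probes whose RefSeq accession, without its version, belongs to a rat gene with a symbol of the Rpl or Rps form, Rplp0 to Rplp2, Rpsa or Fau. Ribosomal S6 kinase genes and Rps19bp1 were left out. The rule found 26 probes for 25 genes, among 33849 probes and 4013 genes that could be named. The RefSeq table holds 80 genes of this form, 47 of the large and 33 of the small subunit, so 12 large subunit genes (12 probes) and 13 small subunit genes (14 probes) are described here. All 26 probes were above background on at least 3 of the 6 arrays, and 24 of them on every array.

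The RNA came from the substantia nigra pars compacta, the midbrain region of the dopamine neurons, cut out by laser from male Sprague Dawley rats aged 5 months. In 3 rats a pump under the skin released the pesticide rotenone, which blocks complex I of the respiratory chain, for 28 days at 0.5 mg/kg each day. The other 3 rats carried pumps with the solvent alone, a mixture of dimethylsulfoxide and polyethylene glycol with the surfactant Pluronic F-127, which the rotenone rats received too. Each rat gave 1 array with a single biotin label, and rats are called by the numbers in their labels (solvent 11, 7 and 1, rotenone 16, 13 and 9). The dopamine neuron gene Th, at 12.48 to 13.09 on the normalized log2 scale, and the dopamine transporter Slc6a3, at 12.45 to 12.82, were above background on every array, as were the glial genes Gfap, Mbp and Aif1, so the captured tissue held glia besides neurons. In such mixed tissue fewer cells of a type and less RNA per cell cannot be told apart.

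Ribosomal proteins bind ribosomal RNA to form a small subunit, which reads the message, and a large subunit, which joins the amino acids. The proteins are made in matched amounts, and those not built into a subunit are degraded. Their messages are among the most abundant in a cell, and most begin with a cytosine followed by an unbroken stretch of pyrimidines, the terminal oligopyrimidine tract. Through this tract mTOR and the RNA-binding protein LARP1 control the translation of these messages.

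The sequences around the annotated start sites are shown because this tract is what marks ribosomal protein messages as a class. The RefSeq promoter table (build GRCr8) held 20 of the 25 genes. Rpl15 and Rps29 were among those without an entry. At 9 of the 20 genes the annotated first base was a C followed by at least 4 further C or T, against 2.63% of all 33469 promoters in the table. At 13 of 20 the first 5 bases were all C or T, against 4.75%. The motif CTTCCG, read on both strands over the 300 bases of each promoter and free to overlap the tract, lay in 9 of 20 and in 16.6% of all promoters. Each line below gives 20 bases before and 10 bases from the annotated start, 5′ to 3′ on the gene's strand, with the pyrimidine run that begins at the start in capitals. The first 4 genes are of the large subunit and the last 4 of the small, chosen after their values were seen: Rpl10a, Rplp0, Rpl18 and Rpsa had large differences between arrays, and Rpl19, Rps26, Rps3a and Rps6 small ones, Rpl19 at values close to background.

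Rpl10a, chr20:6390513-6390542, plus strand: tgcgcgaaaccttctgccttCTTTTCCggt
Rplp0, chr12:46718381-46718410, minus strand: ctggtgaccgcaccgcacttCTCTCgccag
Rpl18, chr1:105325250-105325279, plus strand: gtctttctggacctggtctagcaggaggcg
Rpl19, chr10:83519044-83519073, plus strand: gagcccgcgaccagcaagctCTTTCCTTTC
Rpsa, chr8:128728859-128728888, plus strand: cccgtcctttccgcgctaccctggaacggg
Rps26, chr7:1643395-1643424, minus strand: gtcgggagagccgccgggtcCTCTTTCgag
Rps3a, chr2:173827033-173827062, minus strand: cgcgcgagttgtacttccgcCCTTTTggct
Rps6, chr5:106420531-106420560, minus strand: ttcgtgacgcctcctaggcggtcggctgtg

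Both kinds of start, with and without the run in capitals, are found among the genes with large and with small differences. A start without the run says only that it is not at this annotated base.

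Across the 6 arrays the ribosomal protein genes did not move as 1 block. In rotenone rat 16 some, led by Rpsa, Rpl18 and Rplp0, lay more than 1.7 below the mean of the other 5 rats on the log2 scale. In the same rat Rps6 and Rps23 lay within 0.1 of that mean. No probe of the 26 passed an adjusted p of 0.05 between rotenone and solvent in limma's moderated test, with or without rat 16 (0% of the 16708 probes tested were called in either fit). Of the 26 probes, 22 had a lower mean with rotenone, against 48.4% of all probes tested, and the median difference was -0.42, against 0.01 over all probes. Without rat 16, 20 of 26 were lower, against 49.6% of all probes, and the median difference was -0.16, against 0.00216. Quantile normalization gives the arrays the same distribution of values, so the median over all probes is largely set by it.

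**Figure D1:**
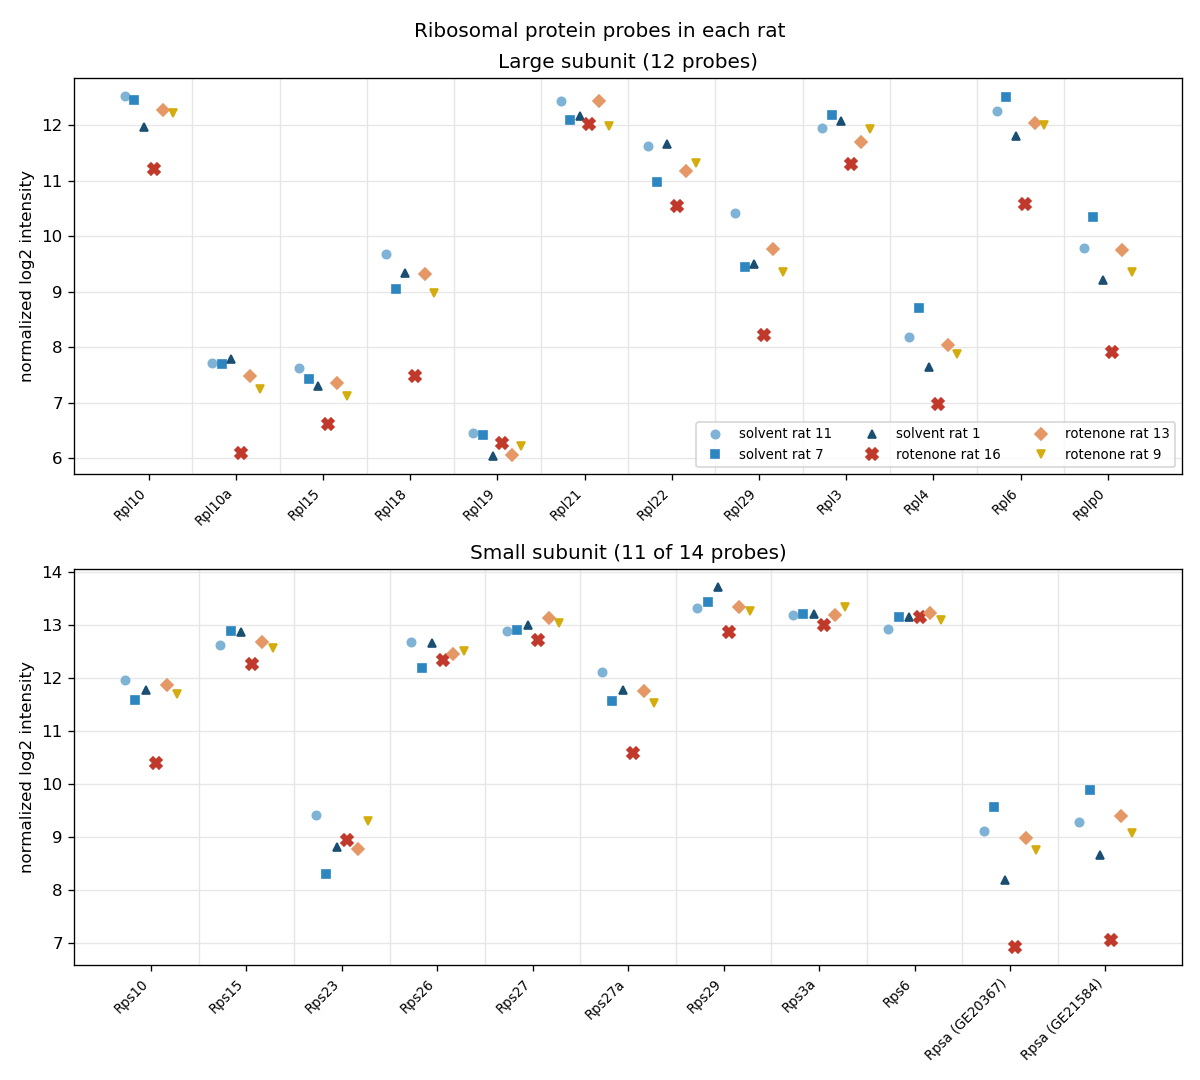
Normalized log2 intensity (y axis) of 23 of the 26 ribosomal protein probes (x axis) in each of the 6 rats, large subunit above and small subunit below, 1 point per rat and no averaging. Rat 16, the red cross, lies lowest at 18 of the 23 probes shown, while the other 5 rats overlap at most of them, and at Rps6 and Rps23 rat 16 lies among the others.

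The large subunit genes had lower means with rotenone at 12 of 12 probes, with differences from -0.80 to -0.09 on the log2 scale. Rpl10a forms the L1 stalk, which helps the spent tRNA to leave. Its probe GE21175 read 7.72, 7.71 and 7.79 in solvent rats 11, 7 and 1, and 6.09, 7.49 and 7.25 in rotenone rats 16, 13 and 9. All 3 rotenone values lay below all 3 solvent values, and in rat 16 the probe was not above background. The solvent mean was 7.74 ± 0.05 and the rotenone mean 6.94 ± 0.75 (SD, n = 3 each). The difference was -0.80 ± 0.31 (SE, 95% interval -1.48 to -0.11), with an unadjusted p of 0.0277 and an adjusted p of 0.895 in limma. The size moved with the treatment of background and scale: it was -1.57 with plain subtraction, -1.10 with an offset of 16 and -1.17 in the authors' scaled intensity. Without rat 16 it was -0.37, with an unadjusted p of 0.0495 in limma, an adjusted p of 1.00 and the groups still apart. Rpl10a was the 1 member with an unadjusted p below 0.05 and a lower mean, where 2.95% of all probes had both, and again the 1 member without rat 16, where 1.75% had. No member was higher at that p, against 1.99% of all probes.

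Rpl3, which lines the centre where peptide bonds form, read 11.95, 12.19 and 12.07 in the solvent rats and 11.31, 11.71 and 11.93 in rotenone rats 16, 13 and 9. Its groups also did not overlap, though rat 9 lay only just below solvent rat 11. The difference was -0.43 ± 0.19 (SE) with all rats and -0.25 without rat 16, with unadjusted p values of 0.0513 and 0.169 in limma. Rpl10a and Rpl3 were the 2 members whose groups lay apart with rotenone lower, against 4.89% of all probes, and 0 members lay apart with rotenone higher, against 5.08%. Without rat 16 the same 2 members lay apart with rotenone lower, against 8.25%. Rps27 then lay apart with rotenone higher, and the share of all probes in that direction was not counted. The count of 2 in 26 with rotenone lower is thus close to the share over all probes.

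Rplp0 is the base of the stalk that carries Rplp1 and Rplp2 and receives the elongation factors. It read 9.79, 10.35 and 9.22 in solvent rats 11, 7 and 1, and 7.92, 9.75 and 9.36 in rotenone rats 16, 13 and 9. Rotenone rats 13 and 9 lay within the solvent range, and rat 16 stood at -1.77 from the mean of the other 5. The group difference of -0.78 ± 0.43 (SE) went to -0.23 without rat 16, and its 95% interval then ran from -0.92 to 0.46.

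Rpl18 read 9.68, 9.06 and 9.34 with solvent and 7.49, 9.32 and 8.98 with rotenone. Its difference was -0.76 ± 0.40 (SE), and -0.20 without rat 16. Again a single rotenone rat stood below a cluster of the other 5. The same held for Rpl29 (rat 16 at 8.22, the others 9.36 to 10.41), Rpl6 (10.57 against 11.81 to 12.50), Rpl4 (6.97 against 7.65 to 8.71) and Rpl10 (11.21 against 11.98 to 12.52), a protein that joins the large subunit late and completes it. Their differences were -0.67, -0.65, -0.55 and -0.42, and -0.22, -0.17, -0.22 and -0.07 without rat 16. Rpl15 and Rpl22 were lowest in rat 16 by less, at -0.76 and -0.80 from the mean of the other 5 rats. Rpl21 (12.02 in rat 16, 11.98 to 12.43 in the others) was not lowest there. Rpl19, which takes part in a bridge between the subunits, read 6.05 to 6.46 over all rats and was above background on 4 arrays, so its difference of -0.12 is between values close to background, where a fall could not show.

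The small subunit genes ranged more widely, from -0.76 to 0.17, with 10 of 14 probes lower. Rpsa, needed for the ripening of the small subunit and also known as the laminin receptor precursor, was measured by 2 probes that carry the same accession. Probe GE21584 read 9.27, 9.88 and 8.66 in solvent rats 11, 7 and 1, and 7.06, 9.40 and 9.06 in rotenone rats 16, 13 and 9. Probe GE20367 read 9.11, 9.56 and 8.18, and 6.92, 8.97 and 8.74. Both probes were highest in solvent rat 7 and lowest in rotenone rat 16, and they ranked the rats within each group alike; rotenone rats 13 and 9 lay within the solvent range. Before normalization the net signal of GE21584 in rat 16 was 57.1, where the other rats had 385 to 958. The differences were -0.76 ± 0.53 and -0.74 ± 0.50 (SE), and -0.04 and -0.09 without rat 16.

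Rps27a, made as a fusion with ubiquitin, and Rps10 shared with Rpsa the low value in rat 16, while solvent rat 7 was the lowest of the solvent rats for both. Rps27a read 10.58 in rat 16 and 11.53 to 12.11 in the others, and Rps10 read 10.39 against 11.58 to 11.96. Without rat 16 their differences of -0.53 and -0.45 became -0.18 and 0.01. Rps29 (-0.32) and Rps15 (-0.29) were also lowest in rat 16, and differed by -0.19 and -0.16 without it.

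Rps6, Rps3a, Rps27, Rps26 and Rps23 lay less than 0.3 from the mean of the other 5 in rat 16. Of these, Rps3a and Rps27 were still lowest in rat 16, at -0.22 and -0.27 from that mean. Rps6, the substrate of the S6 kinases, read 12.93, 13.15 and 13.15 with solvent and 13.15, 13.23 and 13.09 with rotenone. The group means differed by 0.08 (95% interval -0.27 to 0.43), and rat 16 lay 0.04 above the mean of the other 5. Rps3a read 13.18, 13.21 and 13.21 with solvent and 13.0035, 13.18 and 13.34 with rotenone, a difference of -0.02 (interval -0.38 to 0.34). Rps27 differed by 0.03 (interval -0.35 to 0.41) and Rps26, which contacts the message at its exit, by -0.08 (interval -0.48 to 0.33).

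Rps27 read 12.88, 12.90 and 13.0035 with solvent and 12.72, 13.12 and 13.03 with rotenone. Without rat 16 its difference was 0.15, with an unadjusted p of 0.354 in limma, and rotenone rats 13 and 9 lay above every solvent rat. Rps26 read 12.67, 12.19 and 12.65 with solvent and 12.33, 12.44 and 12.50 with rotenone. Rps23, which sits where the codon is read, differed by 0.17 (interval -0.43 to 0.77). The signs for Rps26, Rps27 and Rps3a changed with the scaling or with a rat left out, as they lay near 0. In the authors' scaled intensities Rps26 differed by 0.12 and Rps3a by 0.18, and under cyclic loess Rps27 differed by -0.03.

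**Figure D2:**
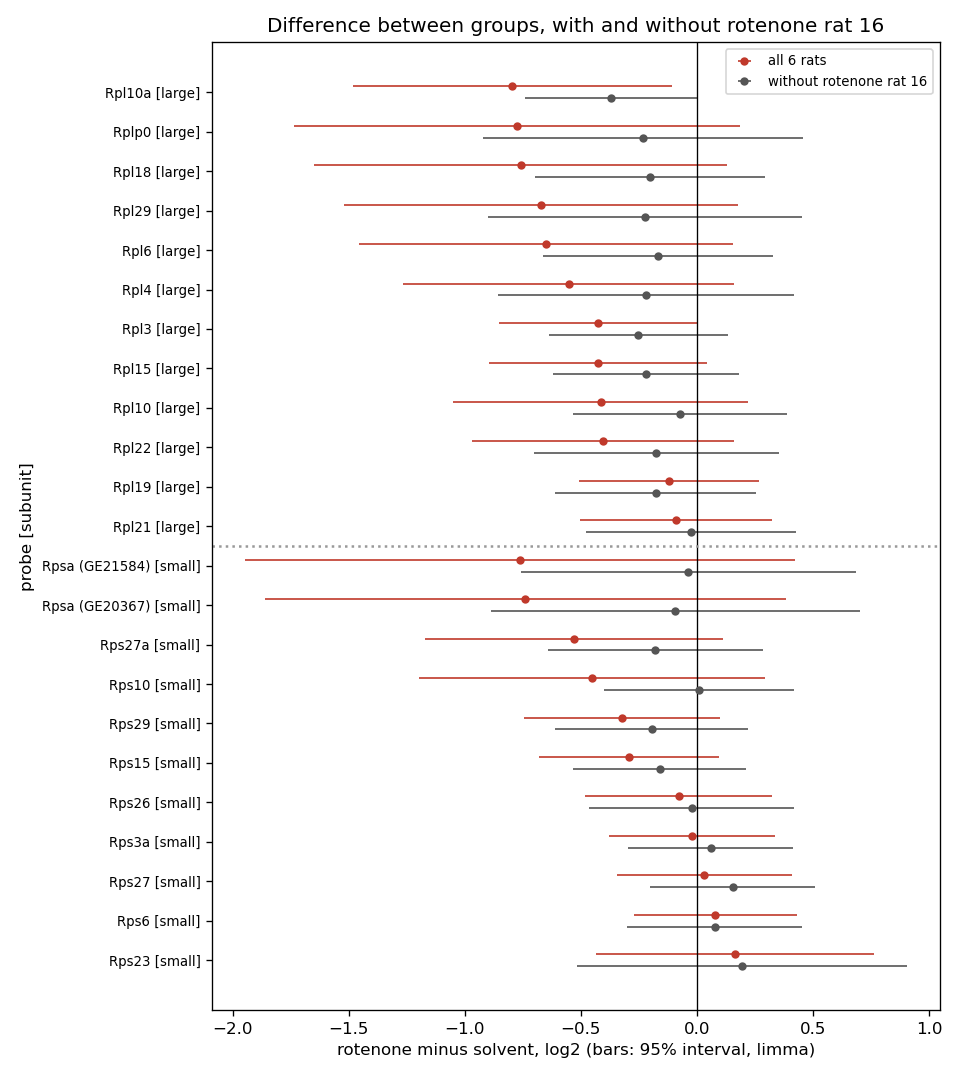
Difference between rotenone and solvent means (x axis, log2, points) with 95% intervals from limma (bars) for 23 of the 26 probes (y axis), with all 6 rats in red and without rotenone rat 16 in grey; large subunit probes are above the dotted line. With all rats the interval of Rpl10a alone leaves out 0, and without rat 16 most points lie nearer to 0, while the large subunit stays on the negative side at 12 of 12.

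The large subunit was lower than the small in median difference, at -0.49 against -0.19, a gap of -0.30. Without rat 16 the medians were -0.21 and -0.03, a gap of -0.18, and 12 of 12 large subunit probes were lower against 8 of 14 small subunit probes. These are descriptions of chosen members and carry no test. Signal level differed between many of the probes too. Solvent means were 7.74, 9.36, 9.79 and 9.79 for Rpl10a, Rpl18, Rplp0 and Rpl29. For Rps3a, Rps6, Rps27 and Rps26 they were 13.20, 13.08, 12.93 and 12.50. Some large subunit probes were bright, such as Rpl10 at 12.32 and Rpl6 at 12.19, and some small subunit probes dimmer, such as Rpsa (GE21584) at 9.27. The part of signal level in the gap was not tested. In the authors' scaled intensities the small subunit median was 0.03, above 0, and that of the large subunit -0.55. Set against each probe's own median over the 6 arrays, the large subunit stood at 0.26, 0.14 and 0.01 in solvent rats 11, 7 and 1, and at -1.02, 0.03 and -0.10 in rotenone rats 16, 13 and 9. The small subunit stood at 0.19, -0.07 and 0.05 with solvent and at -0.31, 0.05 and -0.01 with rotenone. Outside rat 16, the large minus small gap ran from -0.09 in rotenone rat 9 to 0.21 in solvent rat 7, and the ranges of the groups overlapped; in rat 16 it was -0.70.

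**Figure D3:**
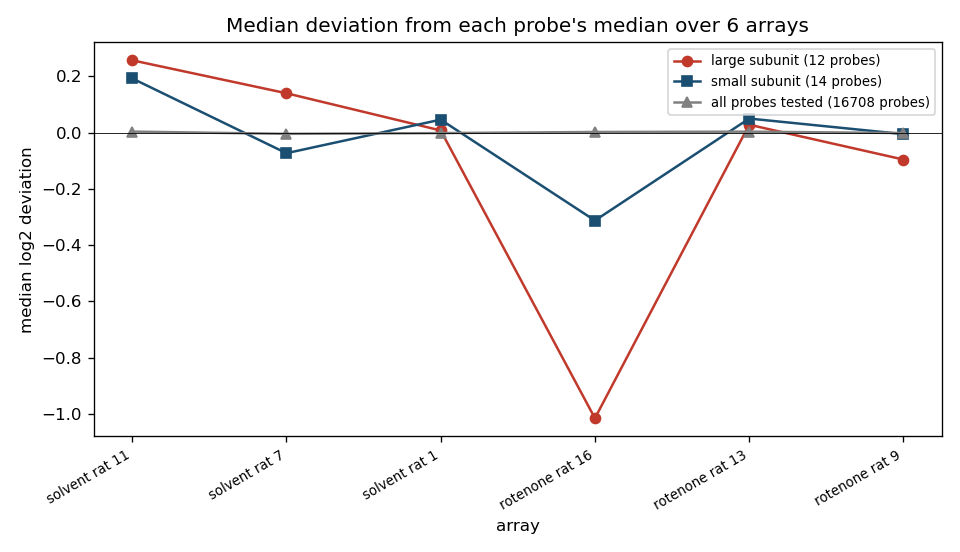
Median log2 deviation (y axis) of the large subunit probes, the small subunit probes and all probes tested from each probe's median over the 6 arrays, for each array (x axis); lines join the points only to guide the eye. Rat 16 lies at -1.02 for the large and -0.31 for the small subunit, while all probes tested lie near 0 on every array, which quantile normalization largely sets.

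The array of rat 16 stood apart from the others. Its median net signal was 11.7, against 13.9 to 16.6, and 44.2% of its probes were above background, against 48.6% to 51.5%. Over all probes tested its distance from the mean of the other 5 rats had a median of 0.01 and an SD of 0.44 across probes, while over the ribosomal protein probes the median was -0.78 and the SD 0.69, with a range from -2.20 to 0.04. The median over all probes is again largely set by quantile normalization. The array of rat 16 was the lowest at 19 of 26 ribosomal protein probes, against 26.1% of all probes. At 11 of the 26 it lay more than 1 below the mean of the others, against 2.01% of all probes. These 11 probes stand for Rpl10, Rpl10a, Rpl18, Rpl29, Rpl4, Rpl6, Rplp0, Rps10, Rps27a and Rpsa, the last at both probes. The 7 probes not lowest in rat 16 included those of Rpl19, Rpl21, Rps23, Rps26 and Rps6. The ribosomal protein probes also varied more among the solvent rats, with a median SD of 0.28, against 0.19 over all probes tested. These comparisons with all probes were not matched by signal level, and the offset added to the intensities shrinks differences most at dim probes.

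The positive control spots were also low in rat 16. Each array carries 240 of them, for 6 control transcripts. Per the labels, synthetic messages were added to each tube before amplification, but the sources used here do not say whether these spots read those messages. Their median net signal was 1252, 2050 and 890 in solvent rats 11, 7 and 1, and 216, 1286 and 1021 in rotenone rats 16, 13 and 9. All 6 control transcripts were lowest in rat 16, at -3.61 to -1.90 from the mean of the other 5 on the log2 scale. The median over all spots stood at -2.53, or -2.15 after the authors' scaling. All 6 also ranked the solvent rats 7, 11, 1 and the rotenone rats 13, 9, 16, before and after scaling.

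Rpl4, Rpl6, Rplp0 and both Rpsa probes ranked the rats of both groups in the order of the control spots, 5 of 26 against 4.79% of all probes. The order among the solvent rats alone, which does not depend on rat 16, was shared by the same 5 probes and by 16.4% of all probes, so that this count is near the background. The part of the control spots' signal in the differences of the ribosomal protein genes was not tested.

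**Figure D4:**
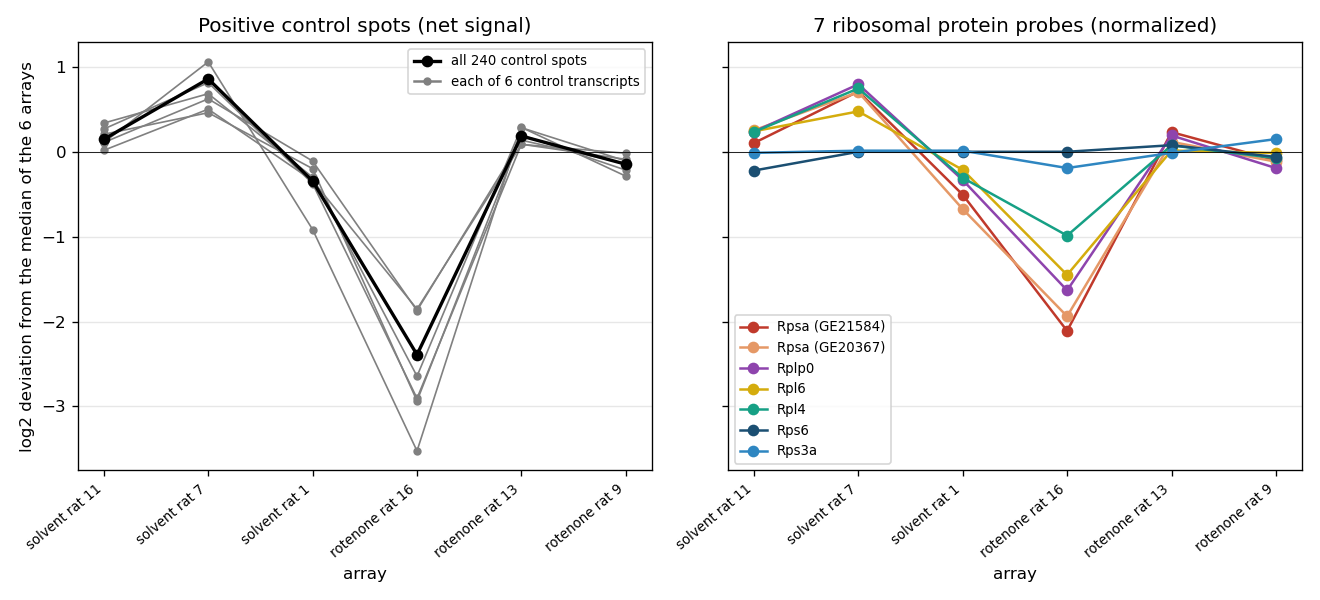
Log2 deviation from the median of the 6 arrays (y axis) by array (x axis), on the left for the net signal of the positive control spots and on the right for 7 ribosomal protein probes chosen after their values were seen; lines join arrays only to guide the eye. Rpsa, Rplp0, Rpl6 and Rpl4 are lowest in rotenone rat 16 and highest in solvent rat 7, as the control spots are. Rps6 and Rps3a lie near 0 on every array, though Rps3a too is lowest in rat 16.

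None of the other measured genes of protein synthesis passed the adjusted test in limma. Over all probes 4.94% had an unadjusted p below 0.05 in either direction, and 48.4% had a lower mean with rotenone. Of 13 measured translation factor genes, 10 were lower and 3 higher (median -0.11, and -0.05 without rat 16), and 1 of 13 had an unadjusted limma p below 0.05, near the share over all probes. That was the neuronal elongation factor Eef1a2, at 7.48, 6.98 and 7.37 with solvent and 6.26, 6.99 and 6.97 with rotenone. Its difference was -0.53 ± 0.23 (SE), and -0.30 without rat 16. The poly(A)-binding protein gene Pabpc1 followed, with a difference of -0.47 (-0.27 without rat 16). Of 15 genes of ribosome assembly and ribosomal RNA synthesis, 10 were lower and 5 higher (median -0.15, and -0.05 without rat 16), with Dkc1 (-0.37, and -0.27 without rat 16), a pseudouridine synthase, and Npm1 (-0.54, and -0.30), a nucleolar chaperone, at the lowest p.

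Rack1, a scaffold that sits on the small subunit, read 8.02, 8.41 and 7.31 in solvent rats 11, 7 and 1, and 6.50, 7.58 and 7.45 in rotenone rats 16, 13 and 9. Its difference was -0.74 ± 0.33 (SE), with an unadjusted p of 0.0493 in limma and -0.39 without rat 16. It ranked the rats in the order of the control spots, as Rpsa and Rplp0 did. Nap1l1, a nucleosome assembly gene and the other measured gene of its list, differed by -0.08. The median of these 2 unlike genes was -0.41 (-0.23 without rat 16), a midpoint that describes neither. Of 8 genes that signal to the ribosome, such as kinases of the mTOR path, 6 were lower and 2 higher (median -0.21, and -0.04 without rat 16), led by Pdpk1 (-0.34) and Eif2ak1 (-0.23), the heme-regulated kinase of initiation factor 2. The mitochondrial ribosome, built apart from the cytosolic one, was represented by 3 genes, with a median of -0.23 (-0.11 without rat 16). Of these Mrps18a differed by -0.52 and Mrpl23 by -0.23, and without rat 16 by -0.11 and -0.13.

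Markers of cell types were read beside the ribosomal protein genes. The general neuron markers moved with them in rat 16: their median deviation there was -0.67, against -0.09 to 0.27 in the other rats, and 9 of 9 had a lower mean with rotenone (median -0.36, and -0.22 without rat 16). The unadjusted limma p was below 0.05 for 4 of these 9, against 4.94% of all probes, and the adjusted p for none; 48.4% of all probes had a lower mean. The dopamine neuron markers lay at -0.15 in rat 16 and -0.30 in rat 13. Single dopamine neuron genes differed there: of the 6 rats, Th was highest in rat 16, at 13.09, and Slc6a3 (12.45) and Nr4a2 (5.94) were lowest. Astrocyte markers lay at -0.23 in rat 16, oligodendrocyte markers at 0.06, microglia markers at -0.04, GABA neuron markers at -0.18, endothelium and pericyte markers at 0.11 and blood cell markers at -0.04. The median differences between rotenone and solvent were -0.17 for dopamine neuron markers (-0.16 without rat 16), -0.14 for oligodendrocyte markers (-0.17) and 0.13 for astrocyte markers (0.21). For microglia markers they were -0.14 (-0.12), for GABA neuron markers -0.06 (0.01), for endothelium and pericyte markers 0.13 (0.11) and for blood cell markers 0.00145 (0.11). Without rat 16 those for dopamine neurons and oligodendrocytes were close to the -0.16 of the ribosomal protein probes, and the other lists differed from it to varying degrees. In rat 16 these 2 lists lay at -0.15 and 0.06, and the ribosomal protein probes at -0.71. The part of the cell makeup in the ribosomal protein values was not tested.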

How the data were processed

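RNA of 6 rats, grouped by the labels, was read on 6 arrays. The deposited scanner files hold linear intensities of spots and local background. The authors' scaled intensity is, from its values, the net intensity divided by about the array median. The sources used here do not name the scanner software. Each probe's spot mean was corrected for its background median by normexp (offset 50), without control spots afterwards, and quantile normalization followed on log2 values. A probe was tested where at least 3 arrays lacked the scanner's mark for low or masked signal (16708 of 33849). Groups were compared in limma 3.58.1 (R 4.3.3) with its moderated two-sided test. Adjusted p-values are Benjamini-Hochberg over all tested probes, and the code was tested on simulated data.

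RefSeq accessions (GRCr8) named 4675 probes (13.8%). Spots that the scanner marked as irregular (29.4% to 36.3% of probes per array) were kept. Many ribosomal protein probes were marked more often. Counting this and the scanner's other quality marks, both Rpsa probes, Rpl18, Rplp0 and Rps23 were marked on 6 arrays and Rpl10a on 5. Rps6 was marked on 4, Rps26 on 3, Rps3a on 2 and Rpl19 on 0. The part of these marks in the differences was not tested. The offset draws differences towards 0. Precision is limited by having 3 arrays per group. The part of pseudogene copies in a probe's signal was not tested. Members, lists and the naming rule were chosen with earlier results of these data known. Named with all values were probes with an unadjusted p below 0.05 or groups apart, the 3 largest and 3 smallest differences, and genes with several probes; of each other list of protein synthesis genes, the 2 genes with the lowest p. Counts and medians cover all members, of which 3 genes are not reported singly here. The p-values rest on the spread between arrays within each group, in which differences between rats and between arrays cannot be told apart. The moderated test also draws each probe's variance towards that of all probes tested.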

Additional observations from a re-analysis of the deposited data

How the results depend on the processing

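The alternatives were equalised medians, cyclic loess, subtraction with a floor of 1, an offset of 16, the authors' scaled intensity, no filter, above background on 6 arrays, 1 probe per gene, marked spots left out, and each rat left out. The median of the ribosomal protein probes lay between -0.43 and -0.27 under the first 8, and between -0.56 and -0.16 with a rat left out. Of the 26 probes, 22 were lower with rotenone in the main fit, 18 in the authors' scaled intensity and 23 with cyclic loess. With a rat left out the count ran from 20 to 24. The large subunit median ranged from -0.69 to -0.49 and, with a rat left out, from -0.68 to -0.21. The small subunit median was above 0 in the authors' scaled intensity, at 0.027, and -0.09 with 1 probe per gene; with a rat left out it ranged from -0.25 to -0.03, and was -0.12 without solvent rat 1. The gap between subunits ranged from -0.57 in the authors' scaled intensity to -0.30 with no filter. With a rat left out it ranged from -0.56 without solvent rat 1 to -0.18 without rotenone rat 16. It was -0.22 without solvent rat 7 and -0.23 without solvent rat 11. Leaving out marked spots kept 1 ribosomal protein probe, so no subunit values came from it. In limma 0 probes were called in each fit except without solvent rat 1, where 3 were, none a ribosomal protein gene, so leave-one-out counts ran from 0 to 3. Of 825 probes with an unadjusted p below 0.05, 59.8% were lower, and of 937 with equalised medians, 83.8%. The latter moved the median of all probes to -0.06.

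Signs turned in the authors' scaled intensity for Rps26 (0.12) and Rps3a (0.18), and with cyclic loess for Rps27 (-0.030). With a rat left out, Rps26 ranged from -0.24 to 0.0037, Rps27 from -0.057 to 0.15 and Rps3a from -0.098 to 0.059. The causes were not tested. A slide block could not be fitted, since each file names its own array. The header day of solvent rat 7 differs from that of the other 5 rats, and without this rat the ribosomal protein median was -0.36.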
